A study of Mus musculus with 32 samples.

Results

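The cultures compared were mouse regulatory T cells (Tregs) held for 36 h with an agonist of TNFR2 or with an agonist of OX40, chosen by their titles: 3 libraries of each, 6 of 32 in all. All cells were purified Foxp3/GFP-positive Tregs of C57BL/6 mice aged 2.5 months with a Foxp3-IRES-GFP knock-in, in which Foxp3 and the reporter are made from 1 transcript. Both groups, and the 3 control libraries of 36 h that had no agonist, received IL-2 (10 ng/ml) and were stimulated with coated anti-CD3 and anti-CD28. For TNFR2 the ligand used was TNC-sc(mu)TNF80, also called STAR2, at 12 ng/ml. For OX40 it was OX40L, given at a dose of 100 ng/ml. The same agonists and doses were given for 18 h, with 3 libraries for TNFR2 and 2 for OX40, and those 5 libraries are used as a second, separate measurement. Doses were not matched, so the choice of receptor and the strength of the stimulus cannot be told apart in any difference below. The labels do not say whether the libraries of a group came from separate animals or cultures. The p-values therefore measure only the spread between libraries within groups, estimated over all 32 libraries in 11 groups.

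TNFR2 and OX40 are both members of the tumour necrosis factor receptor superfamily that lack a death domain. Their cytoplasmic tails bind TRAF adaptor proteins, which pass the signal to the canonical and the alternative arm of the NF-kB pathway. Tregs carry both receptors, and each is known as a costimulatory receptor of these cells. The question asked here is how Tregs given one of these stimuli differ from Tregs given the other. The control cultures do not enter that difference, but they are part of the shared estimate of the spread.

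The TNFR2 agonist libraries held 18186230, 19456459 and 19499416 expected counts and the OX40 agonist libraries 38083925, 14785089 and 18036554, so that the first OX40 library was the deepest of the 6. Transcripts of the ribosomal RNA locus on chromosome 17 took 15260, 2983 and 4156 CPM (counts scaled to library size) with the TNFR2 agonist and 1740, 13020 and 9116 CPM with the OX40 agonist, against 834.8 to 3376 in controls. On a principal component analysis of the 6 libraries the second OX40 library stood apart, at −32.07 on the first component, where the other 5 lay between −4.66 and 14.91. The third OX40 library stood apart on the second component, at 26.35, where the others lay between −14.95 and 2.63. Counts of genes are also given without the first TNFR2 and the second OX40 library, the 2 with over 10000 CPM at the ribosomal RNA locus. The third OX40 library, at 9116 CPM, stayed in that fit. That fit also left out all other libraries of the series above this cut. These were the first and second control and the first TNFR2 library of 18 h (10390, 26360 and 12120 CPM). The third DR3 agonist library of 36 h (14700 CPM) was left out as well. All groups share 1 estimate of the spread in the fit. Foxp3 stood at 372, 355 and 383 CPM with the TNFR2 agonist and at 376.2, 374.7 and 392.4 CPM with the OX40 agonist, and Cd4, Cd3e, Il2ra and Ikzf2 likewise did not pass the test, and all 5 were expressed in every library as the label of Treg requires. Ctla4, the other Treg marker, was expressed in all and lower with the TNFR2 agonist, as given further on. Markers of other cells spanned a range: Ms4a1 and Pax5 of B cells stayed under 0.4 CPM in the 6 libraries, Cd79b was at 2.92 to 4.34, Igkc at 4.48 to 7.27 and Ighm at 257 to 293 CPM. Of CD8 and NK cell markers Cd8a stayed under 1.5 CPM, Cd8b1 was at 5.72 to 7.29 and Eomes at 26.6 to 31.6 CPM. Of 18 myeloid and dendritic markers Mpeg1 was highest at 5.73 to 6.96 CPM, and 6 (Fcgr1, Clec9a, Siglech, Cd209a, S100a8 and S100a9) were at 0.

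The 2 agonists left Tregs that differed in many genes and by little. Of 14313 genes tested, 575 (4.02%) were called different at an adjusted p below 0.05 (edgeR's quasi-likelihood test with Benjamini-Hochberg adjustment, the test behind each adjusted p here), 327 higher (2.28%) and 248 lower (1.73%) with the TNFR2 agonist. The median size of a called difference was 1.17-fold, 66 genes passed 1.5-fold (46 higher, 20 lower), and 21 genes (0.147%) passed 2-fold, 13 higher and 8 lower. Those 21 were rare transcripts, with means of at most 5.72 CPM in the group where they were higher. The median log2 fold change over all genes tested was −0.0032. In 559 of the 575 called genes the 3 and 3 libraries did not overlap, whereas 3078 genes (21.5%) did not overlap among all tested. More genes were called in each agonist against the 36 h controls, 3 libraries that both comparisons share: 3551 genes (24.8%) were called with the TNFR2 agonist, 265 of them by at least 2-fold, and 1908 (13.3%) with the OX40 agonist, 143 by at least 2-fold. The number of genes called in the direct comparison rested on single libraries. It was 262 without the second and 377 without the first TNFR2 library, 284 without the first and 309 without the second OX40 library. Without the 2 libraries high at the ribosomal RNA locus it was 165 (109 higher, 56 lower). All 575 genes kept their direction there. Since 559 of them did not overlap, their direction could hardly turn in fewer of the same libraries.

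**Figure D1:**
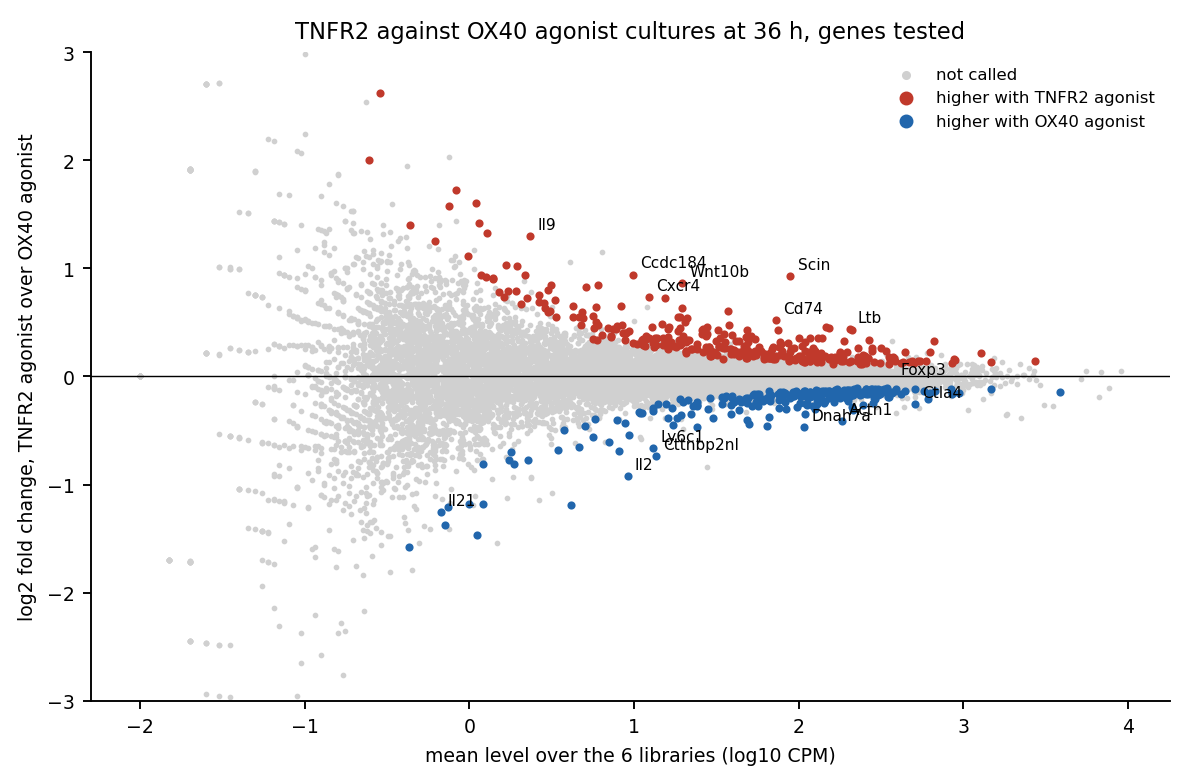
Log2 fold change of the TNFR2 over the OX40 agonist cultures at 36 h (vertical axis) against the mean level over the 6 libraries (log10 CPM, horizontal axis) for the genes tested; coloured points are called, grey points are not, and 26 uncalled genes lie beyond the axis. The 575 called genes lie close to 0, with a median size of 1.17-fold, and those past 2-fold sit at the low end of the level axis.

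The receptors and ligands of the family came first. Per length, on the scale of the deposited TPM, Tnfrsf4 (OX40) was the most abundant of the 4 targeted receptors, at 1044 ± 23.8 TPM (SD, n = 3) with the TNFR2 agonist and 1018 ± 33.9 with the OX40 agonist. Tnfrsf9 (4-1BB) followed at 587.3 ± 13.4 and 525.8 ± 2.37 TPM, Tnfrsf1b (TNFR2) at 112.5 ± 4.23 and 120.5 ± 1.00 TPM, and Tnfrsf25 (DR3) at 24.15 ± 0.866 and 21.91 ± 3.46 TPM. The order was the same in both groups. Neither receptor that was engaged differed by the test: Tnfrsf1b showed a log2 fold change of −0.07 ± 0.035 (SE, adjusted p 0.297) and Tnfrsf4 one of 0.05 ± 0.038 (adjusted p 0.527). Tnfrsf9 was higher with the TNFR2 agonist, at 562, 589 and 563 CPM against 521, 521 and 511 CPM, a log2 fold change of 0.14 ± 0.036 (adjusted p 0.0122) that did not pass without the second TNFR2 library or without the 2 libraries high at the ribosomal RNA locus. Of 19 other receptors of the family tested, 15.8% were called, against 4.02% of all genes. Fas and Tnfrsf8 (CD30) were higher and Cd27 was lower. Fas, the death receptor, stood at 39.1, 41.2 and 40.4 CPM with the TNFR2 agonist, at 31.4, 31.2 and 29.2 CPM with the OX40 agonist and at 20.8 to 22.3 CPM in controls, a log2 fold change between agonists of 0.39 ± 0.057 (adjusted p 4.409e-06).

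Of 14 TNF superfamily ligands tested (28.6% called, against 4.02% of all genes), 3 were higher and 1 was lower with the TNFR2 agonist. Ltb encodes lymphotoxin beta, the membrane partner of lymphotoxin alpha (ENSMUSG00000024399, mm10 chromosome 17, 35194439 to 35196320). It stood at 238, 253 and 224 CPM with the TNFR2 agonist, at 170, 165 and 192 CPM with the OX40 agonist and at 157 to 179 CPM in controls. The OX40 libraries lay among the controls and the TNFR2 libraries above both, and the log2 fold change between agonists was 0.44 ± 0.051 (adjusted p 3.101e-07). Tnfsf8 (CD30 ligand) was higher by 0.27 ± 0.042 and Tnfsf4, the ligand of OX40 itself, by 0.33 ± 0.096. The Tnfsf4 difference (16.2, 14.5 and 13.6 against 12.56, 10.98 and 11.28 CPM, adjusted p 0.03898) was lost in 8 of 15 other analyses, which changed the test, scaling, filter or model or left out libraries. Cd40lg was lower by 0.35 ± 0.077 on the log2 scale. Tnf and Lta, the ligands of TNFR2, did not pass, with log2 fold changes of 0.003 ± 0.045 and −0.03 ± 0.034.

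Genes of the NF-kB pathway, onto which both receptors signal, were compared next. Of 12 NF-kB subunits and IkB inhibitors (58.3% called, against 4.02% of all genes), 5 were higher and 2 lower with the TNFR2 agonist. Their median log2 fold change was 0.11 against −0.0032 over all genes. Relb, the subunit of the alternative arm, stood at 85.1, 87.2 and 84.1 CPM with the TNFR2 agonist and at 65.0, 68.0 and 74.0 CPM with the OX40 agonist. Every TNFR2 library was above every OX40 library, by 0.32 ± 0.045 on the log2 scale (adjusted p 3.121e-06). Nfkb2, the precursor of the p52 partner of Relb, differed less, at 625, 626 and 617 against 562, 541 and 588 CPM (0.14 ± 0.034, adjusted p 0.00692). The inhibitors Nfkbia (306, 301 and 294 against 247, 257 and 263 CPM) and Nfkbie (54.3, 54.4 and 55.1 against 45.3, 42.1 and 43.3 CPM) were higher by 0.23 ± 0.036 and 0.32 ± 0.050, and the atypical member Bcl3 by 0.24 ± 0.050. All 5 were nearer to control with the OX40 agonist: controls held 58.2 ± 2.66 CPM of Relb, 334.8 ± 14.7 of Nfkb2 and 180.6 ± 8.1 of Nfkbia. Of the subunits of the canonical arm, Rel (c-Rel) was lower with the TNFR2 agonist, at 333, 309 and 348 against 369, 400 and 363 CPM (−0.19 ± 0.043, adjusted p 0.004683), as was the nuclear inhibitor Nfkbid, while Rela (0.07 ± 0.052) and Nfkb1 (0.07 ± 0.032) did not pass. The call of Rel held in 12 of 15 other analyses. It was lost without the second OX40 library, without the second TNFR2 library and without the 2 libraries high at the ribosomal RNA locus. Nfkb2 held in 13 and Bcl3 in 14 of the 15, and Relb, Nfkbia and Nfkbie in all. A difference between the arms was not tested.

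Of 27 tested targets of NF-kB (40.7% called, against 4.02% of all genes), 10 were higher and 1, Marcksl1, was lower. Their median was 0.14. The list holds Cd83, Tapbp, Relb, Gadd45b, Cxcl10, Myb, Icam1, Nfkb2, Irf1 and Traf1 among the higher members. Cd83, a surface protein of activated lymphocytes and dendritic cells, stood at 84.4, 90.6 and 82.7 against 64.6, 63.1 and 63.2 CPM (0.43 ± 0.039, adjusted p 3.522e-11), and Gadd45b at 86.7, 90.7 and 83.2 against 68.3, 70.4 and 73.3 CPM. Of 22 TRAF, cIAP and A20 regulators (13.6% called), Tnip1 and Traf1 were higher and Traf6 lower, with a median of 0.01. Traf1 passed in 4 of 15 other analyses. Without the 2 libraries high at the ribosomal RNA locus the numbers higher fell to 3 of the NF-kB and IkB genes, 6 of the targets and 0 of the regulators.

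The letters of NF-kB sites were looked for in the 250 bases before each start in the RefSeq promoters of build GRCm38.p6, which gave 10015 of the genes tested. Searched on both strands were 2 forms, GGG followed by NN and TTTCC, and GGG followed by NAN and TCCC, which can overlap each other. At least 1 of them was found in 19 of 249 promoters of genes higher with the TNFR2 agonist (7.63%), in 5 of 200 of genes lower (2.5%) and in 273 of all 10015 (2.73%). AP-1 letters (TGANTCA) were in 4.82% of the higher, 5.0% of the lower and 4.13% of all promoters, NFAT letters (TGGAAA) in 14.5%, 19.5% and 14.8%, and STAT letters (TTCNNNGAA) in 8.43%, 10.0% and 6.0%. These are matches of letters and not sites shown to be bound. Those of genes named elsewhere in the text are written 5′ to 3′ along the gene, with a single match shown where a promoter held more, to show how the letters vary among genes that moved together:
Ltb: GGAAAGTCCC
Nfkbia: GGAAATTCCC
Cxcl10: GGGACTTCCC
Tnip1: GGGAATTCCC
H2-Aa: GGGAGTTCCC
Irf1: GGGGAATCCC
Il9: GGGTTTTTCC
Egln3: GGGCAGTCCC
Bbc3: GGAAACCCCC
Fosl2: GGGAGTCCCC
Rel: GGGAAATCCC
Rel is the member of this set that was lower with the TNFR2 agonist, and its promoter holds the same class of letters.

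The promoters of Ltb and of Nfkb2 (both chosen after their values were seen) are shown with the matched letters in capitals, NF-kB and STAT letters in each. They cover chr17:35194257-35194506 and chr19:46304487-46304736 on the plus strand, and the Nfkb2 promoter holds an NF-kB match of each form close to the start.
Ltb: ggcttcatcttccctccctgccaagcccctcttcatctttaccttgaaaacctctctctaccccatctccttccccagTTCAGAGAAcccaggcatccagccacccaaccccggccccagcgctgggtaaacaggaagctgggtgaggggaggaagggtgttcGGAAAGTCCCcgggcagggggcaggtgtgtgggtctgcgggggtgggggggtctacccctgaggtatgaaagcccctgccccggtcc
Nfkb2: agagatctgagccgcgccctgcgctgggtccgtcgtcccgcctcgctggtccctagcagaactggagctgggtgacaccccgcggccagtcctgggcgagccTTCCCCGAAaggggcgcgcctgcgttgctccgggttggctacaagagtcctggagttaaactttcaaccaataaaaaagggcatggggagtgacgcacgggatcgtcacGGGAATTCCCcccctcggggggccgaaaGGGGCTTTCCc

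Called genes were ranked where the higher group averaged at least 5 CPM and the libraries did not overlap, leaving out predicted genes and clones, 1 of which passed 2-fold at that level. Within those limits the largest differences toward the TNFR2 agonist were in Ccdc184 and Scin. Scin encodes scinderin, which severs actin filaments in a calcium-dependent way (ENSMUSG00000002565, chromosome 12, 40059769 to 40134228). It stood at 119, 112 and 120 CPM with the TNFR2 agonist, at 61.1, 64.7 and 59.1 CPM with the OX40 agonist and at 13.6 to 14.7 CPM in controls. Both agonists were far above control, and the TNFR2 libraries were 1.9-fold above the OX40 libraries (log2 fold change 0.93 ± 0.052, adjusted p 7.92e-18), in each of the 15 other analyses between 0.904 and 0.959. Ccdc184 (ENSMUSG00000029875, chromosome 15, 98167158 to 98170134) was at 13.5, 13.2 and 11.9 against 6.16, 6.05 and 8.05 CPM, with controls at 2.569 ± 0.25. Wnt10b, a secreted Wnt ligand (ENSMUSG00000022996, chromosome 15, 98770712 to 98778150), was at 25.65, 25 and 25.8 against 14.2, 13.5 and 14.2 CPM, a 1.82-fold difference with little spread (adjusted p 1.32e-13). Kcnh2, a potassium channel, was 1.79-fold higher, at 8.57, 7.94 and 7.01 against 4.79, 4.03 and 3.91 CPM.

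Surface and signalling genes followed. The chemokine receptor gene Cxcr4 was at 15.7, 15.8 and 14.5 CPM with the TNFR2 agonist against 9.20, 9.04 and 9.47 CPM with the OX40 agonist (1.66-fold, adjusted p 1.8e-08). Slc2a6, of the hexose transporter family, was at 20.4, 19.2 and 18.5 against 11.5, 10.3 and 13.3 CPM. Mreg (melanoregulin), Pnkd and the heparan sulphate proteoglycan gene Sdc4 were higher by 1.55-fold, 1.52-fold and 1.47-fold, each without overlap. Cebpb, a basic leucine zipper transcription factor, was at 21.9, 23.8 and 20.8 against 14.6, 14.3 and 16.5 CPM, with controls at 16.3 ± 1.65. The OX40 libraries of Cebpb lay at the level of control. Sh3bp4 (1.56-fold) and the axon guidance ligand Ntn1 (1.48-fold) passed in each of the 15 other analyses, while the low genes Arc and Apobec1 each failed in 3, among them the one without the 2 libraries high at the ribosomal RNA locus. Cxcl10 and Cebpb share exon bases with a gene on the other strand, Art3 and Tmem189, whose reads these counts may not keep apart. The same limit holds for Actn1, Tgm2, Junb, Nfkb2, Tapbp, Foxp3, Cxcr5, Irf7, Srebf1, Pim1, Pfkp, Hspd1, Lrig1, Gnl3 and Gimap7, each of which overlaps another tested gene on either strand.

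Under the same limits Il2 had the largest difference among genes lower with the TNFR2 agonist. It encodes interleukin-2, the growth factor that Tregs take up from other T cells and make little of themselves (ENSMUSG00000027720, chromosome 3, 37120523 to 37125959). It stood at 7.44, 6.08 and 5.35 CPM with the TNFR2 agonist, at 11.3, 13.6 and 11.3 CPM with the OX40 agonist and at 6.01 to 8.59 CPM in controls. The OX40 libraries were thus above both other groups, 1.9-fold above the TNFR2 libraries (log2 fold change −0.92 ± 0.13, adjusted p 2.64e-06). Cttnbp2nl, a cortactin-binding protein gene (ENSMUSG00000062127, chromosome 3, 105001915 to 105053146), was at 9.98, 9.59 and 11.1 against 16.3, 17.9 and 17.2 CPM. Tgm2 (transglutaminase 2) was 1.62-fold lower and Ly6c1, a surface protein of memory T cells, 1.58-fold lower, at 10.32, 11.03 and 9.293 against 16.4, 13.8 and 17.9 CPM. Fn1 (fibronectin), Bsn and Idi2 were lower by 1.57-fold, 1.52-fold and 1.45-fold, at mean levels of 11.1 CPM or less.

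The promoters of Scin and Il2 are shown for contrast, as genes with large differences in opposite directions, Scin with no match to any motif searched and Il2 with 1 NFAT match, in capitals. They cover chr12:40134229-40134478 and chr3:37125955-37126204 on the minus strand, and those of Ccdc184 and Cttnbp2nl likewise held no match.
Scin: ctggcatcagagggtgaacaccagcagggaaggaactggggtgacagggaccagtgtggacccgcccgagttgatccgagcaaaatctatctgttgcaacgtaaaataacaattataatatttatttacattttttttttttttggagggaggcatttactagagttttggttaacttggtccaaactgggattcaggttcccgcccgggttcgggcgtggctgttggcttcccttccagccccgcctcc
Il2: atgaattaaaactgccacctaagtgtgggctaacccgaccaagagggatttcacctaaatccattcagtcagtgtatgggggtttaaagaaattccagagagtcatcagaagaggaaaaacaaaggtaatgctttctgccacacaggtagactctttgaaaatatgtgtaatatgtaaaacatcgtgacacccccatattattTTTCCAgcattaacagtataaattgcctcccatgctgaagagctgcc

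More abundant genes were lower by smaller amounts. Actn1 (alpha-actinin 1, a crosslinker of actin filaments) was at 160, 155 and 161 against 212, 203 and 217 CPM, a 1.33-fold difference (adjusted p 1.07e-10), with controls at 148.3 ± 3.29. The TNFR2 libraries of Actn1 lay near control and the OX40 libraries above. Stra6, the retinol transporter, was at 53.2, 54.5 and 55.0 against 72.8, 72.1 and 78.4 CPM, and Nkg7, a granule protein of cytotoxic cells, at 42.95, 44.44 and 40.96 against 58.3, 56.3 and 58.9 CPM. Tg and Itih5 were 1.36-fold and 1.38-fold lower, and both passed in each of the 15 other analyses. Dnah7a was 1.39-fold lower, but it has near-identical copies among which the counting could split its reads. Prnp and Sipa1l2 were also among the 15 largest in this direction, and their calls failed in 3 and 8 of 15 other analyses.

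**Figure D2:**
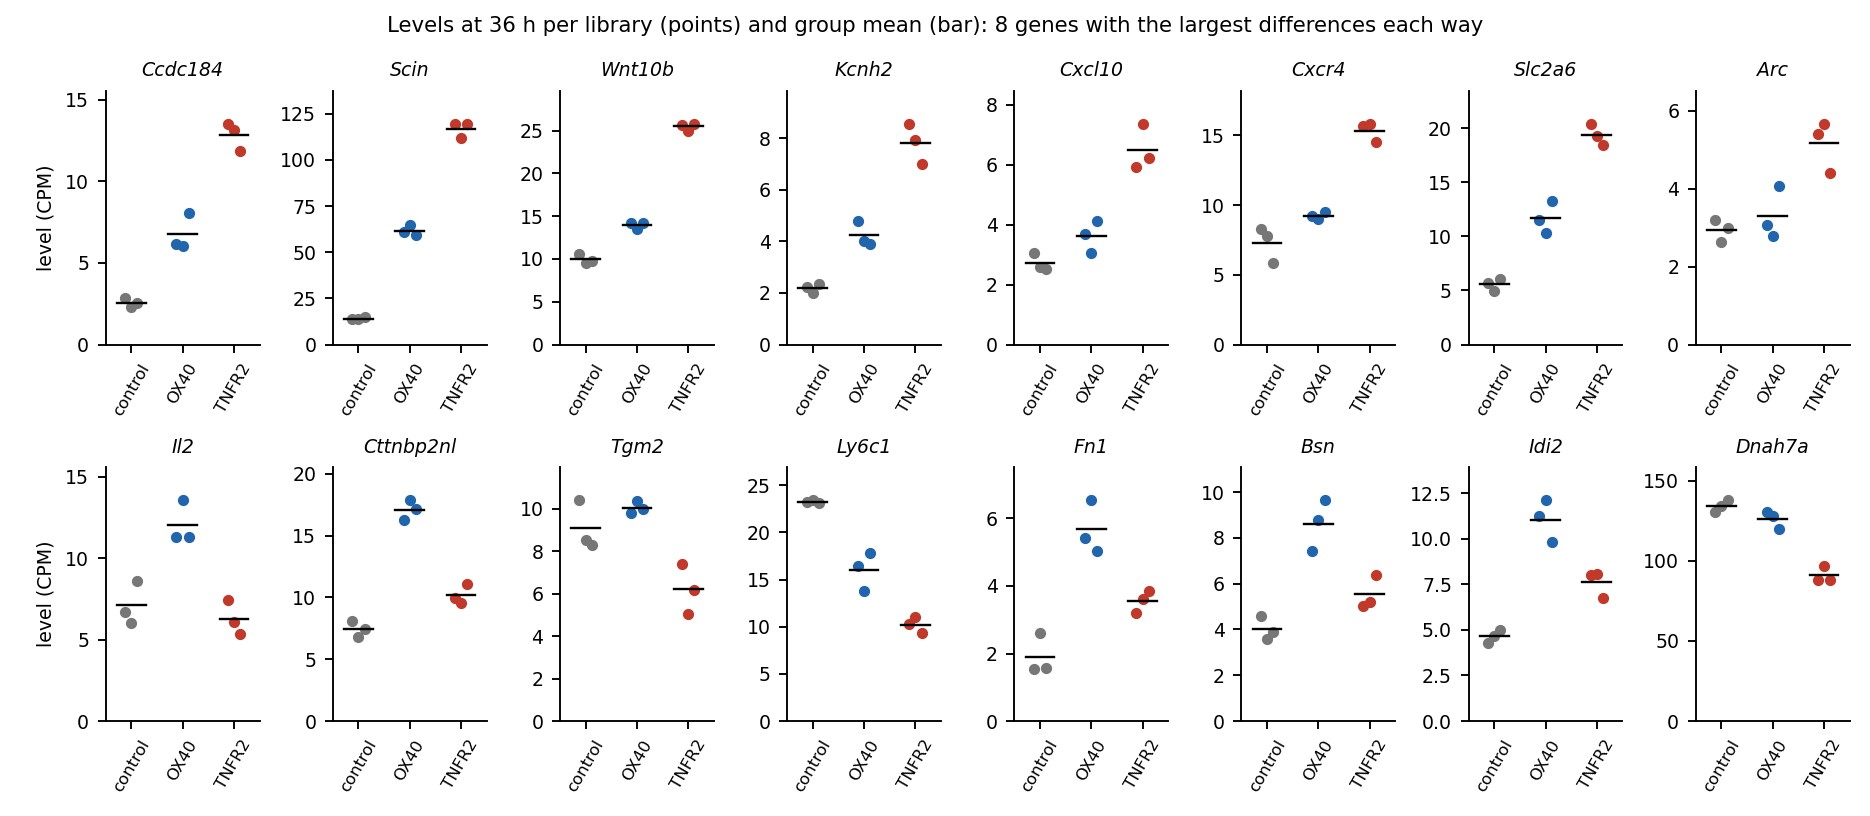
Levels in CPM at 36 h in each library (points) and the group mean (bar) for the control, OX40 agonist and TNFR2 agonist cultures, for the 8 genes with the largest differences in each direction; axes start at 0. For Scin both agonists lie far above control, with means of 117.1 CPM for the TNFR2 and 61.6 CPM for the OX40 agonist, while for Il2 the OX40 libraries alone lie above control.

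Genes typical of antigen-presenting cells were the list with the highest median, 0.33. The list holds Scin, and lists were chosen with earlier results of these data known, so this rank is a description and not a test. Of 18 tested (44.4% called, against 4.02% of all genes), 8 were higher with the TNFR2 agonist and 0 lower. Cd74, the invariant chain of major histocompatibility complex (MHC) class II, stood at 85.1, 88.9 and 84.5 CPM with the TNFR2 agonist, at 60.1, 59.0 and 60.5 CPM with the OX40 agonist and at 43.4 to 48.3 CPM in controls (log2 fold change 0.52 ± 0.048, adjusted p 3.522e-11). Control, OX40 and TNFR2 libraries formed 3 levels without overlap. H2-Aa, a class II chain, was at 1.80, 2.01 and 1.66 against 0.726, 0.765 and 0.680 CPM, with controls at 0.739 to 1.07 CPM. H2-DMa, which loads peptide on class II, was at 28.1, 27.1 and 24.4 against 20.9, 22.87 and 21.04 CPM, and the costimulatory ligand gene Cd80 at 31.0, 27.8 and 31.5 against 24.4, 25.7 and 24.9 CPM. Scin, Cd83, Relb and the calcium channel subunit gene Cacnb3 were the other members that passed, and H2-Ab1 (0.64 ± 0.22, adjusted p 0.09463) and Ciita (0.35 ± 0.46) did not. The peptide-loading gene Tapbp, outside this list, was also higher, at 296, 298 and 305 against 235, 233 and 242 CPM. B cell markers summed to 291.8 to 313.0 CPM with the TNFR2 agonist, 269.1 to 290.7 with the OX40 agonist and 275.4 to 289.3 in controls, of which Ighm made up 257 to 293, and 0 of the 11 tested were called. At levels the filter left untested, Fcer2a (0.395, 0.619 and 0.519 against 0.188, 0 and 0.113 CPM) and Blnk (0.338, 0.464 and 0.415 against 0.188, 0.0695 and 0.17 CPM) did not overlap, with Fcer2a at 0.448 to 0.51 CPM in controls. The part of B cells in these differences was not tested. Myeloid and dendritic markers summed to 9.397 to 10.67 and 10.15 to 10.93 CPM. Without the 2 libraries high at the ribosomal RNA locus 5 members were higher and 0 lower. Fewer cells of a type and less RNA per cell cannot be told apart in such bulk libraries.

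Among 22 cytokine genes (13.6% called, against 4.02% of all genes) 1 was higher and 2 lower. Il9 was at 2.82, 3.15 and 3.79 CPM with the TNFR2 agonist and at 1.049, 1.877 and 1.304 CPM with the OX40 agonist, 2.46-fold apart (adjusted p 3.35e-05), and it passed in each of 14 other analyses that kept it. Besides Il2, Il21 was lower (0.564, 0.103 and 0.519 against 1.049, 1.043 and 0.6804 CPM), but at this level the call failed in 9 of 14 other analyses. Il10 (0.07 ± 0.10), Ifng (0.11 ± 0.12) and Tgfb1 (0.13 ± 0.040, adjusted p 0.05861) did not pass. Of 11 chemokines (18.2% called), Cxcl10 (5.92, 7.37 and 6.23 against 3.69, 3.06 and 4.14 CPM) and Ccl4 (52.3, 57.5 and 52.3 against 41.5, 39.1 and 45.4 CPM) were higher. Ccl4 was highest in controls, at 58.2 to 71.6 CPM, and fell with both agonists. Of 22 chemokine and lymphoid homing receptors (13.6% called), Cxcr4 and S1pr1 were higher and Cxcr5 was lower. The call of S1pr1 held in 2 of 15 other analyses.

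Genes listed as the Treg core signature were set beside the 4.02% called over all genes. Of 28 tested 25% were called, 1 higher and 6 lower, with a median of −0.009. The list was chosen with earlier results of these data known and was not matched in level to all genes. These shares therefore describe the list and are not a test. Ctla4, the inhibitory receptor by which Tregs strip costimulatory ligands from other cells, stood at 469, 465 and 454 CPM with the TNFR2 agonist, at 568, 562 and 529 CPM with the OX40 agonist and at 518 to 541 CPM in controls (log2 fold change −0.26 ± 0.041, adjusted p 3.283e-05). The TNFR2 libraries of Ctla4 were the lowest of the 9. Izumo1r (folate receptor 4), Ecm1, Lrig1, Gzmb and Swap70 were lower too, and Lrrc32 (GARP), which holds latent TGF-beta on the surface, was higher by 0.15 ± 0.041. The calls of Lrrc32 and Gzmb each failed in 6 of 15 other analyses. Of 16 inhibitory receptors and ligands (12.5% called), Tigit (34.7, 34.4 and 34.2 against 43.4, 41.9 and 45.9 CPM, adjusted p 8.092e-06) and Btla were lower and 0 higher. Of 14 suppressive genes (28.6% called), Il1r2, Lgals1 and Lrrc32 were higher and Ctla4 lower. Of 25 effector Treg genes and lineage factors (16.0% called), Tnfrsf8, Myb, Batf and Gata3 were higher and 0 lower.

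Called genes of resting and recirculating T cells were more often lower than higher. Of 22 tested (31.8% called, against 4.02% of all genes), 5 were lower and 2 higher with the TNFR2 agonist. Their median was −0.04. Cd27, a costimulatory receptor of resting T cells, was at 42.22, 42.58 and 38.68 CPM with the TNFR2 agonist and at 50.43, 47.41 and 46.78 CPM with the OX40 agonist (−0.24 ± 0.050, adjusted p 0.001894), a call lost without the first OX40 library. Cd27, Bach2, Txnip and Igfbp4 were among the lower members, and Btg2 and S1pr1 were higher, the latter with the call just described as lost in most other analyses. The GIMAP family are GTPases that sustain lymphocyte survival and whose genes lie together on chromosome 6. Of its 8 members (75.0% called), 6 were lower and 0 higher, with a median of −0.16. Gimap7 (25.03, 25 and 25.8 against 31.7, 29.8 and 31.5 CPM), Gimap4 (236, 215 and 226 against 281, 270 and 261 CPM) and Gimap6 (99.8, 104 and 102 against 126, 124 and 117 CPM) were lower in each of the 15 other analyses, and 3 of the family were lower without the 2 libraries high at the ribosomal RNA locus. Of 19 integrins and adhesion genes (26.3% called), Cd226, Alcam, Itga6 and Itga5 were lower and Icam1 was higher.

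Called genes of activation and of the p53 response were more often higher than lower, and those of the BCL2 family went both ways. Of 28 activation and early T cell receptor genes, 35.7% were called, against 4.02% of all genes. Among these 9 were higher and 1, Nr4a3, was lower, and the list median was 0.11. Egr3, an early response transcription factor, stood at 118, 118 and 126 CPM with the TNFR2 agonist, at 96.5, 92.2 and 102 with the OX40 agonist and at 124 to 135 in controls. Junb, an AP-1 subunit, was at 728, 772 and 715 against 561, 544 and 654 CPM. Nr4a1, which tracks the strength of receptor signalling, was at 361, 377 and 359 against 306, 295 and 332 CPM. Egr1, Dusp2, Ier2, Batf, Jun and Fosl2 were the other higher members, and 3 of the list were higher without the 2 libraries high at the ribosomal RNA locus. Of 21 targets of p53 (28.6% called), 6 were higher and 0 lower (median 0.12): Phlda3 (44.3, 43.9 and 42.9 against 30.8, 31.2 and 32.4 CPM), Fas, Btg2, Bax, Bbc3 and the cell cycle inhibitor gene Cdkn1a (207, 220 and 208 against 166, 162 and 178 CPM). The calls of Bax and Bbc3 failed in 5 and 4 of 15 other analyses. Of 16 BCL2 family genes (18.8% called), Bbc3 and Bax were higher. Bcl2, which keeps lymphocytes alive, was lower, at 72.9, 75.4 and 76.8 against 91.7, 95.8 and 91.1 CPM, with controls at 105 to 115.

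Of 24 genes of the IL-2, JAK and STAT5 response, 3 were higher and 3 lower. Socs1, the feedback inhibitor of cytokine signalling, was at 167, 181 and 165 against 115, 119 and 141 CPM, with controls at 122.6 to 141.8 CPM (0.46 ± 0.067, adjusted p 8.579e-05). Pim1 and Il18r1 were higher as well, and Bcl2, Ctla4 and Gzmb were the lower members. Of 36 interferon-stimulated genes (19.4% called), 6 were higher and 1, Irgm1, lower (median 0.03). The guanylate-binding protein genes Gbp2 (245, 241 and 247 against 188, 175 and 180 CPM) and Gbp3 (56.4, 56.6 and 55.8 against 43.3, 40.8 and 40.1 CPM) were higher. Against control the log2 fold change of Gbp2 was −0.00004 (adjusted p 1.0) with the TNFR2 agonist and −0.43 (adjusted p 5.66e-11) with the OX40 agonist, and that of Gbp3 was 0.12 (adjusted p 0.076) and −0.31 (adjusted p 8.42e-06). Gbp7 and the low genes Irf7 and Rtp4 were also higher. Of 9 tested cytotoxic genes (44.4% called), the granzyme inhibitors Serpinb6b and Serpinb9 were higher, and Nkg7 and Gzmb lower.

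Genes of division and of metabolism were compared with the 4.02% called over all genes. None of 36 DNA replication and S phase genes (log2 fold changes from −0.121 to 0.146), of 32 G2 and mitosis genes (−0.208 to 0.152) or of 26 genes of cholesterol synthesis and uptake (−0.152 to 0.146) was called. At a share of 4.02% lists of this size hold few called genes, so that 0 does not set them apart from all genes. In the same fit an unadjusted p below 0.05 was found in 10 of the 36, 6 of the 32 and 4 of the 26. Over all genes tested it was found in 2426 (16.9%). Of 30 MYC and ribosome biogenesis genes (13.3% called), Gnl3, Utp20, Ddx21 and Ncl were lower and 0 higher, with a median of −0.07, and 0 were called without the 2 libraries high at the ribosomal RNA locus. Of 20 G1 cyclins, kinases and inhibitors Cdkn1a was called (5.0%). In glycolysis Pfkp and Hk2 of 24 were lower (8.33% called), and in the hypoxia response Ddit4 and Egln3 of 18 were higher (11.1%). In fatty acid synthesis (17.6% of 17 called) Srebf1 and Scd1 were higher and Acaca lower, and these calls failed in 5, 7 and 4 of 15 other analyses. Oxidative phosphorylation had 2 higher of 37 (5.41%) and cytosolic ribosomal proteins 3 higher of 40 (7.5%). In the ER stress and ATF4 response Cebpb of 28 was higher (3.57%), and among DNA methylation enzymes and partners Gadd45b of 10 (10.0%). Among heat shock genes Hspd1 of 17 was lower (5.88%), a call that failed in 10 of 15 other analyses. Of 11 mitochondrially encoded genes 0 were called. Of 15 markers of conventional helper T cells (40.0% called), Themis was higher and Il2, Il21, Cxcr5, Cd40lg and Igfbp4 lower. The list sums were 833 to 850 CPM with the TNFR2 agonist and 849.1 to 871.5 CPM with the OX40 agonist. Of tested myeloid (8), CD8, NK and gamma-delta (5), and erythroid or platelet markers (4), 0 were called.

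**Figure D3:**
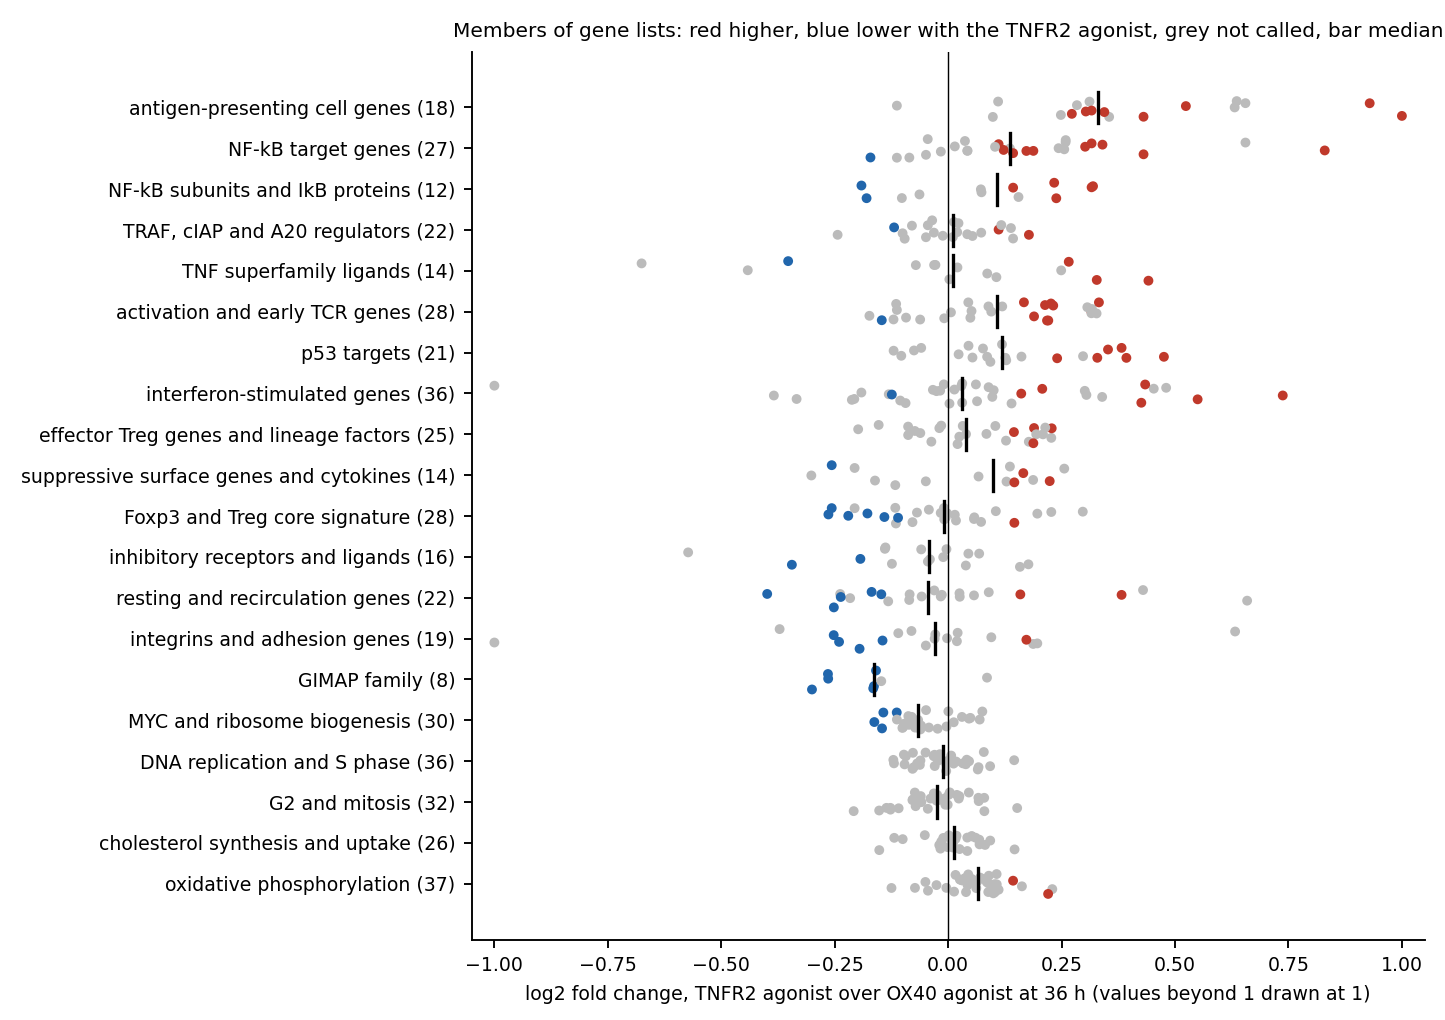
Log2 fold change of the TNFR2 over the OX40 agonist at 36 h for the tested members of 20 gene lists (numbers tested in brackets), with called members in colour and the list median as a bar. Antigen-presenting cell genes sit to the right with a median of 0.33, the GIMAP family to the left with −0.16, and replication and mitosis genes around 0.

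Whether the difference was already there at 18 h was asked with 5 libraries that share none with the 36 h comparison. At 18 h 1172 genes (8.19%) were called, 619 higher (4.32%) and 553 lower (3.86%) with the TNFR2 agonist. Of the 575 genes called at 36 h, 541 had the same sign at 18 h (94.1%), against 64.2% of all genes tested, and 301 were called at both times, 298 of them in the same direction (168 higher, 130 lower). These 298 are 51.8% of the 36 h calls and 25.4% of the 18 h calls. Scin was at 111, 113 and 104 CPM with the TNFR2 agonist and at 53.5 and 54.8 CPM with the OX40 agonist at 18 h, a log2 fold change of 1.01, and Wnt10b was at 19.5, 18.7 and 18.0 against 9.44 and 9.61 CPM. Pnkd stood at 117, 120 and 101 against 65.2 and 65.5 CPM. Il2 was at 1.51, 3.10 and 2.29 against 6.43 and 6.36 CPM, a log2 fold change of −1.52 (adjusted p 2.79e-07). All 15 genes with the largest differences toward TNFR2 at 36 h had the same sign at 18 h and 11 were called. In the other direction 14 of 15 had the same sign, Bsn being the exception, and 6 were called. A change of the difference between the times was called in 22 genes (0.154%), upward in 18 (0.126%) and downward in 4 (0.0279%), and 1119 genes (7.82%) had an unadjusted p below 0.05.

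**Figure D4:**
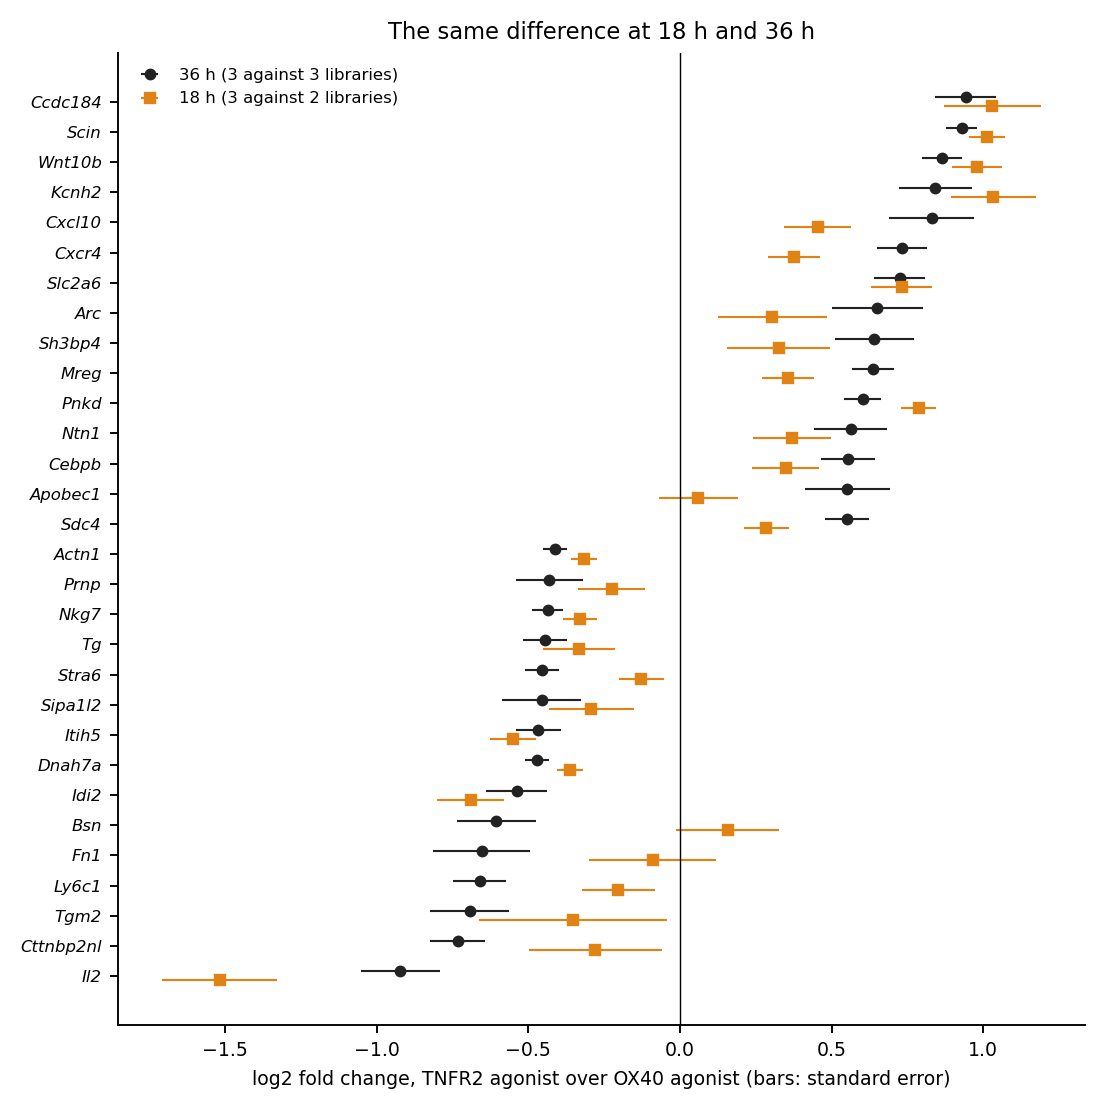
Log2 fold change of the TNFR2 over the OX40 agonist (horizontal axis, bars are standard errors) at 36 h (circles, 3 against 3 libraries) and 18 h (squares, 3 against 2 libraries) for the 15 largest differences in each direction at 36 h. Of the 30 genes 29 lie on the same side of 0 at both times.

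Each agonist against the control cultures of 36 h places these genes, with the caveat that both comparisons use the same 3 control libraries and that the genes were chosen by the direct difference. Of the 15 genes highest toward TNFR2, 15 were called higher than control with the TNFR2 agonist (13.0% of all genes were) and 9 with the OX40 agonist (7.12%). For Scin the log2 fold change over control was 3.05 with the TNFR2 agonist and 2.12 with the OX40 agonist, for Mreg 2.27 and 1.63, and for Ccdc184 2.32 and 1.38. Other genes had their rise mostly with the TNFR2 agonist: Cxcr4 showed 1.08 and 0.35, Wnt10b 1.36 and 0.49, Ltb 0.49 and 0.04. Of the 15 genes lowest toward TNFR2, 5 were higher and 6 lower than control with the TNFR2 agonist (11.9% of all genes were lower), and 9 were higher and 2 lower with the OX40 agonist (6.21% were lower). Cttnbp2nl showed 0.46 and 1.19, Fn1 0.91 and 1.56, and Idi2 0.70 and 1.24, above control with both. Ly6c1 (−1.18 and −0.52) and Itih5 (−1.20 and −0.73) were below control with both, and Dnah7a (−0.56 and −0.09) was called below control with the TNFR2 agonist. Il2 (−0.19 and 0.74), Nkg7 (−0.10 and 0.34) and Actn1 (0.09 and 0.51) were called against control with the OX40 agonist and did not pass with the TNFR2 agonist.

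**Figure D5:**
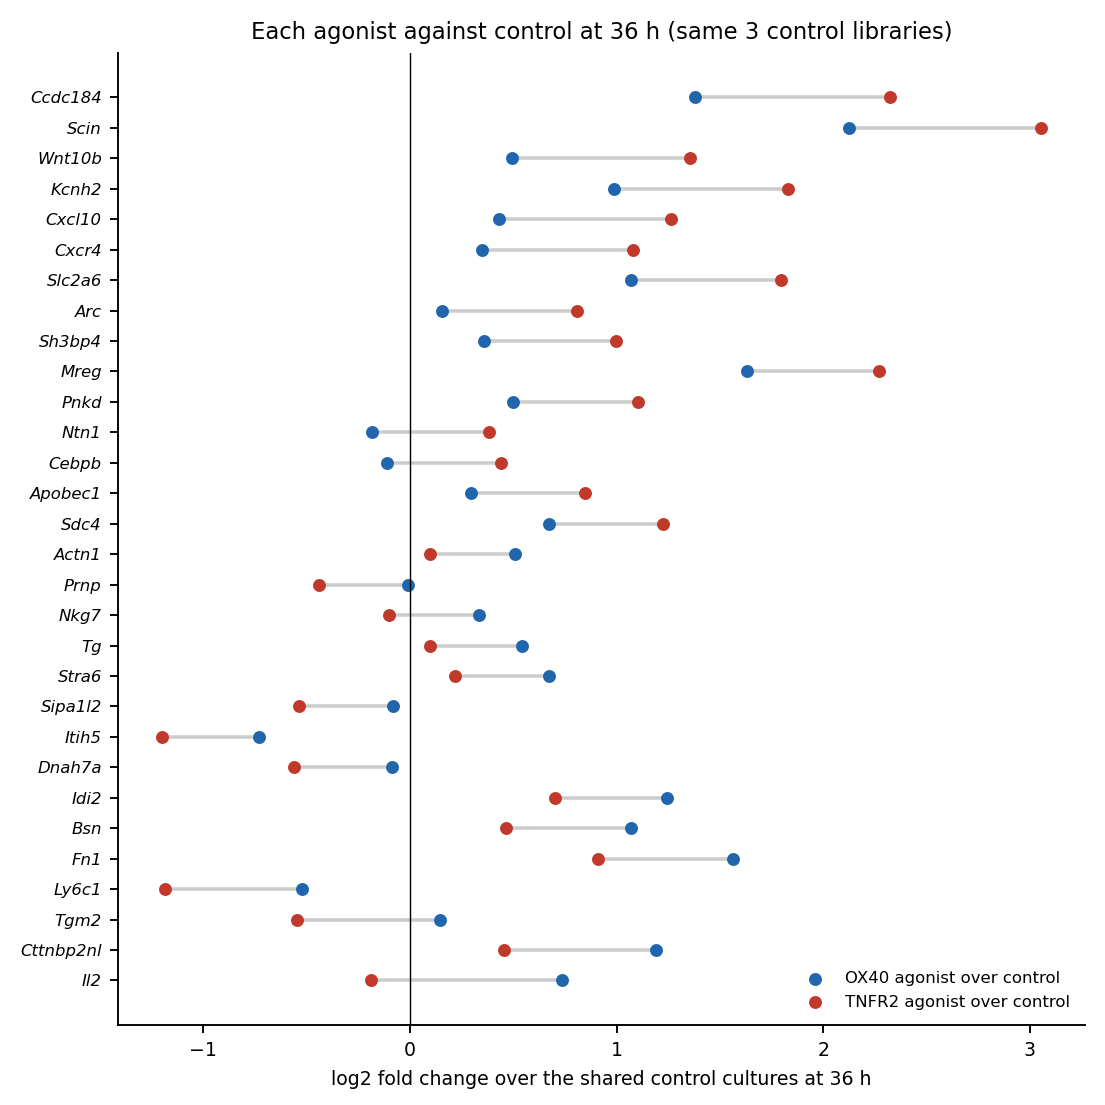
Log2 fold change over the 3 control libraries of 36 h (horizontal axis) for the TNFR2 agonist (red) and the OX40 agonist (blue) in the 15 genes with the largest differences in each direction. Scin lies furthest from control with both, at 3.05 and 2.12, and the genes in the lower rows lie on either side of 0.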

How the data were processed

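RNA of cultured mouse Tregs was sequenced with a kit that does not mark strand (SMART-Seq v4), per the labels' protocols. FastQC, Trimmomatic, STAR 2.5.3a, RSEM 1.2.28 and mm10 stand in the submitters' processing notes. The authors deposited expected counts and TPM per gene and library, estimated by RSEM. Of the annotation release and strand setting the sources used here say nothing. IDs of 53973 of 54087 genes and their positions were matched to GENCODE M21.

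Expected counts were rounded and tested with edgeR 4.0.16 (R 4.3.3) by the robust quasi-likelihood F test over all 32 libraries in 11 groups, with edgeR's filter on low counts, which left 14313 genes, TMM scaling and Benjamini-Hochberg adjustment over them. CPM values are TMM-scaled, and a standard error is the log2 fold change over the square root of F. Deposited TPM served only to compare levels between genes. On data simulated for the 36 h comparison (14143 genes) 43.9% of genes changed by 0.3 on the log2 scale, 70.1% of those changed by 0.6 and 80.3% of those changed by 1 were recovered, with 5 false calls. Counts were drawn gene by gene from the fitted means and spreads, with no effect common to a library. The false calls hold under that model alone.

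Genes were named by rule: the 15 largest differences in each direction among called genes whose libraries did not overlap and whose higher group averaged 5 CPM or more, up to 4 called members of each of 42 lists by p, a set of receptors, ligands and NF-kB subunits, and the 10 smallest p for a change between times; other genes named were chosen after their values were seen. Predicted genes were left out. Some list members are counted but not reported here by name. Members and lists were chosen with earlier results of these data known. Replicate numbers were not used to pair the libraries in the main fit. Same-numbered TNFR2 and OX40 libraries of 36 h correlated at −0.034, −0.038 and −0.019 in their deviations from group means. For TNFR2 and control libraries the values were 0.14, 0.069 and 0.024, and for OX40 and control libraries −0.05, 0.031 and 0.0066. A pairing was not tested. Alternatives were DESeq2 1.42.0, its size factors, no filter and a stricter filter, fewer libraries in the fit, a replicate block, the ribosomal RNA locus as a covariate, and libraries left out.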

Additional observations from a re-analysis of the deposited data

Results flagged for a closer look

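In 22 genes the log2 difference between the TNFR2 and the OX40 agonist changed between 18 h and 36 h by a test of that change (edgeR's interaction contrast), at adjusted p-values from 1.55e-05 to 0.0485. Values below are the change, 36 h minus 18 h. Genes induced by T cell receptor signalling were among them. Nr4a1 changed by 0.427, being lower with the TNFR2 agonist at 18 h (295, 295 and 298 against 333 and 344 CPM) and higher at 36 h. Egr3 changed by 0.383, Nr4a2 by 0.447, Egr2 by 0.297, Fosl2 by 0.438 and Bhlhe40 by 0.222. The chemokine genes Ccl3 and Ccl4 changed by 0.801 and 0.706, from log2 differences of −0.586 and −0.342 at 18 h to 0.215 and 0.363 at 36 h.

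S1pr1, the receptor for lymphoid exit, changed by 0.492, Rgs16 by 0.369, the phosphatase gene Ptpn22 by 0.418, Sla by 0.281, Lgals1 by 0.339 and Cd44 by 0.256. The change was 0.29 for Penk, 0.344 for Nrn1, 0.741 for Mr1 and 0.311 for Pdgfb. It was negative in 4 genes, at −0.643 for Ubxn11, −0.257 for Tbx21, −0.224 for Irf1 and −0.257 for Ncf1. The number of genes called rested on single libraries, and was 9 without the second and 94 without the first OX40 library of 18 h.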

How the results depend on the processing

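The count of genes called at 36 h (575) was 262 to 711 with a single library left out. It was 165 without the 2 libraries above 10000 CPM at the ribosomal RNA locus, which leaves 2 against 2 libraries. That fit also left out the libraries of other groups above this cut. Of those 165 genes, 161 were among the 575. With the replicate block 541 genes were called, 529 of them shared, and DESeq2 called 554, with 491 shared and 2775 adjusted p-values not given. At 18 h the count (1172) was 344 to 1554 with a library left out, 528 without the libraries high at that locus and 312 with only the groups compared in the fit. For the change between times (22) the values were 9 to 94, 5 and 6. The cause of these moves, beyond fewer libraries, was not tested. Of 116 named genes called at 36 h, 60 passed in every alternative, 110 with the replicate block, 110 with DESeq2 and 64 without the 2 libraries, as did 24 of the 30 genes with the largest differences.

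Directions turned in genes that were not called. With a library left out, the log2 fold change at 36 h lay from −0.0893 to 0.246 for Tnfsf15, from −0.0237 to 0.0182 for Tnf and from −0.154 to 0.0542 for Tnfsf9. It lay from −0.278 to 0.0421 for Fn1 at 18 h, and from −0.086 to 0.0719 for Prnp against control with the OX40 agonist. With the replicate block Tnf was at −0.000115 and Prnp at 0.00341. Tnf was at −0.000606 with DESeq2 and −0.000609 with its size factors, and Prnp at 0.114 with the ribosomal RNA locus as a covariate. Depth limits the rare transcripts, among them most genes past 2-fold.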
